A study of Mus musculus with 20 samples.

Results

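The genes described here encode CD14 and the Toll-like receptor machinery around it. They were chosen by name, with earlier results of these data known: 8 entries (Cd14, Ly96, Tlr2, Tlr4, Tlr7, Tlr13, Myd88 and Irak3) of the 50600 in each deposited table, and all 8 names were found once in both. Shares of members called, set beside those of all genes, are therefore descriptions and no test of the set. The libraries were made from eosinophils and macrophages of the mouse colon. Colons came from naive C57BL/6 wild-type mice or from C57BL/6 mice that had undergone CAC induction (the labels' term) and bore tumors. The tissue was digested with enzymes, both cell types were taken by flow cytometry, RNA was extracted with Trizol, and 3 technical replicates with different primer pools were made per sample by CEL-Seq, which tags the 3′ ends of polyadenylated transcripts. There were 2 libraries of naive eosinophils, 7 of tumor eosinophils, 5 of naive macrophages and 6 of tumor macrophages, which were numbered within each group as in the labels. Sorting markers, age, sex, the agents of the induction and whether libraries of a group came from separate animals are details not given in the sources used here. P-values therefore measure the spread between these libraries, which may be partly technical.

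Toll-like receptors recognise conserved microbial molecules. CD14 binds lipopolysaccharide and other lipids and hands them to TLR4, which needs the co-receptor MD-2, the product of Ly96, to respond. TLR2 senses bacterial lipoproteins at the cell surface, while TLR7 and TLR13 sense single-stranded RNA and bacterial ribosomal RNA in endosomes. MYD88 carries the signal of all 4 of these receptors to IRAK kinases, and IRAK3 (IRAK-M) restrains that step. In the colon these receptors face a dense microbiota.

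The libraries held between 1477255 and 8520874 reads. All 10 genes of the eosinophil marker list were detected in both eosinophil groups, where they summed to 803 to 9686 CPM (reads of a gene scaled to a common library size) per library, against 7.99 to 71.0 in macrophages. The 12 macrophage markers summed to 18695 to 31939 CPM in macrophage libraries. In eosinophil libraries those 12 summed to 796 and 945 CPM in naive colon and 812 to 1428 in tumors, and Cd163 was at 0 in the naive group. The 12 neutrophil markers summed to 6486 and 11539 CPM in naive eosinophils, 4820 to 14608 in tumor eosinophils, 44.7 to 70.2 in naive macrophages and 140 to 882 in tumor macrophages. The neutrophil sum exceeded the eosinophil sum in 9 of the 9 eosinophil libraries. The 6 monocyte markers summed to 116 and 184 CPM in naive eosinophils and 134 to 372 in tumor eosinophils, lowest in libraries 2 and 3. In naive and tumor macrophages they summed to 260 to 565 and 350 to 464 CPM. The 8 B and plasma cell markers summed to 3465 to 13840 CPM in eosinophil and 5570.5 to 54288 in macrophage libraries. The 8 epithelial markers summed to 1630 to 5184 and 499 to 3269 CPM. Tumor eosinophil libraries 2 and 3 stood apart, with 34.9% and 35.2% of reads from mitochondrial genes against 15.2 to 25.1% in the other eosinophil libraries. Where leaving them out changed a call reported below, the value without them is given.

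Promoter sequences of RefSeq (build GRCm38.p6, 250 bases before to 50 after a transcription start) were matched by symbol for 4 of the 8 genes: Tlr2, Tlr13, Myd88 and Irak3. Member windows on a chromosome set aside beforehand were not used, so the lack of a window for Cd14 does not show that none is listed. Below, 3 of them are shown, 5′ to 3′ on the strand of the gene, because they set a receptor and an inhibitor that rose in tumor macrophages beside the adaptor they share, which was not called. Capitals mark matches, on either strand, to 4 motifs: GGGNNTTCC for NF-kB, GAAANNGAA for the interferon-stimulated response element, TGANTCA for AP-1 and GAGGAAGT for PU.1. The Tlr2 window is chr3:83841559-83841858, minus strand.
Tlr2: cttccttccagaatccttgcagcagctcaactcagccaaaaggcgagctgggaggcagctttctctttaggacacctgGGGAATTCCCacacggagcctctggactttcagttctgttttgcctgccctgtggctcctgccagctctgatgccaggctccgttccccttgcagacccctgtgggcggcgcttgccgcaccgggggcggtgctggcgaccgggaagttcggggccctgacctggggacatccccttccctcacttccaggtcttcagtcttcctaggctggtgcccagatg
The Myd88 window is chr9:119339969-119340268, minus strand.
Myd88: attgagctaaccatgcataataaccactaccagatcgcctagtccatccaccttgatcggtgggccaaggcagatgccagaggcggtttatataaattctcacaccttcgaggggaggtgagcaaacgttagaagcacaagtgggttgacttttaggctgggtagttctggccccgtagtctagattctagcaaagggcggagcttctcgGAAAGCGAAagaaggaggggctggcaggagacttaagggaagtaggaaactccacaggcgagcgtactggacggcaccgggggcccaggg
The Irak3 window is chr10:120202081-120202380, minus strand, the more upstream of the pair listed for this gene.
Irak3: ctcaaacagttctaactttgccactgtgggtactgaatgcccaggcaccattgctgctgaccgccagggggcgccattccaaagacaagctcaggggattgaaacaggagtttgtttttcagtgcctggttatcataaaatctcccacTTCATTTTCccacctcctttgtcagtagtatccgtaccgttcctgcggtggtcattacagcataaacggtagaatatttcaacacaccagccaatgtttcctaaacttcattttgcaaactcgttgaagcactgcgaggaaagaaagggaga
The Tlr2 window held the NF-kB letters at position −172 from the start (GGGAATTCC) and, overlapping it on the other strand, at −171. The Myd88 window held the interferon-stimulated response element at −40 (GAAAGCGAA), and the Irak3 window shown held it on the other strand at −102 (TTCATTTTC). No match was found for AP-1 or PU.1 in these 3 windows, or for any of the 4 motifs in the other Irak3 window or in that of Tlr13. Of all 32851 windows of this length, 5.82% held the NF-kB letters, 8.56% those of the interferon-stimulated response element, 7.81% those of AP-1 and 3.2% those of PU.1. A match is a description of letters and not a measured site. Positions follow for all members but Cd14. The annotated genes (GENCODE M21, GRCm38) are Tlr2 at chr3:83836272-83841767, Tlr4 at chr4:66827584-66930284, Tlr7 at chrX:167304929-167330558, Tlr13 at chrX:106143204-106160493, Ly96 at chr1:16688051-16709611, Myd88 at chr9:119335934-119341411 and Irak3 at chr10:120141648-120202130, all protein-coding.

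Tumor eosinophils held more Cd14 and Tlr2 transcript than naive ones, 14.8-fold and 6.76-fold on the log2(value + 1) scale. These were 2 of the 7 members tested, where 4.61% of all 12967 genes were called (2.42% as higher and 2.19% as lower). Tlr2 and Tlr4 passed the filter on low values (10 normalised reads in at least 2 libraries) only through tumor libraries, and Tlr7 did not pass it. Counts of members called or not overlapping in eosinophils therefore depend on that filter. A gene is called at a Benjamini-Hochberg adjusted p under 0.05 over all genes tested, here from limma. In tumor macrophages Cd14, Tlr2 and Irak3 rose and Tlr7 fell, 4 of 8 members against 17.1% of 11520 genes (8.5% higher and 8.59% lower). The median log2 change was 1.56 over the 7 members tested in eosinophils, without Tlr7, and 0.36 over all 8 in macrophages. That of all genes tested was 0.01 and 0.03. The members' eosinophil median depends on the filter as well, and the medians of the cell types cover unlike sets. The naive and tumor libraries did not overlap for 4 of the 7 members tested in eosinophils (17.1% of all genes) and for 3 of 8 in macrophages (10.7%). In these bulk sorts, a change in the share of cells of a type and a change in transcript per cell cannot be told apart.

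**Figure D1:**
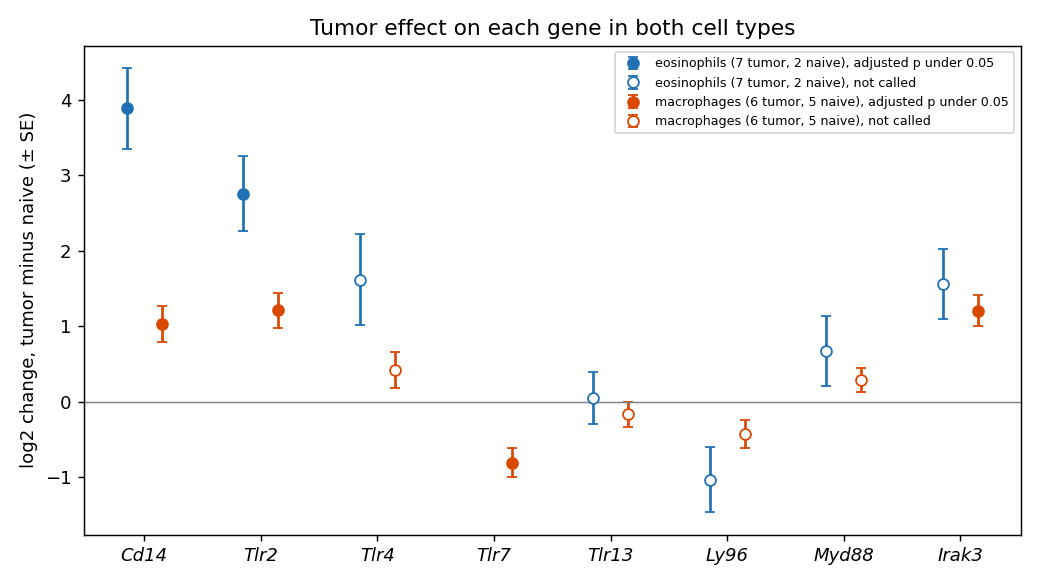
Tumor minus naive log2 change of each gene with its standard error in eosinophils (blue, 7 tumor and 2 naive libraries) and macrophages (orange, 6 and 5); filled points have an adjusted p under 0.05 and Tlr7 was not tested in eosinophils. The eosinophil change of Cd14, 3.89, is the farthest from 0 and lies above the macrophage change of 1.03.

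Among the co-receptors, Cd14 stood at 47.6 and 76.1 normalised reads (the authors' scaled read counts) in naive eosinophils 1 and 2. In the 7 tumor eosinophil libraries the lowest value was 389.6, the median 1236 and the highest 1655. Both naive libraries lay far below every tumor library, and the lowest tumor values, 389.6 and 393.6, belonged to libraries 3 and 2. The log2 change was 3.89 ± 0.53 (SE; limma adjusted p = 0.00269), and it was 4.37 (limma adjusted p = 3.35e-05) without tumor libraries 2 and 3. It was called under each alternative computed.

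In naive macrophages 1 to 5, Cd14 had 2835, 2528, 2375, 3669.9 and 1794 normalised reads. The 6 tumor macrophage libraries ran from 3786 to 9484 with a median of 4817. All tumor libraries lay above all naive ones, although library 4 of the naive group came close to the lowest tumor library. Cd14 rose 2.04-fold here, a log2 change of 1.03 ± 0.24 (limma adjusted p = 0.00843).

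Set on 1 scale over all 20 libraries, the Cd14 change was larger in eosinophils than in macrophages by 2.76 ± 0.58 on the log2 scale (limma adjusted p = 0.00784). Cd14 was the member called for this difference, 1 of 8, where 4.17% of 14973 genes were called (1.87% with a higher and 2.3% with a lower change in eosinophils). On that joint scale Cd14 averaged 80.5 ± 21.2 reads in naive eosinophils (SD, n = 2), 1327 ± 622 in tumor eosinophils (SD, n = 7), 2816 ± 823 in naive macrophages (SD, n = 5) and 6285 ± 2618 in tumor macrophages (SD, n = 6). The order of the groups was thus naive eosinophils, tumor eosinophils, naive macrophages, tumor macrophages, and eosinophils remained below macrophages in both settings. The log2 difference between eosinophils and macrophages was −5.09 ± 0.48 in naive colon (limma adjusted p = 2.47e-08) and −2.33 ± 0.32 in tumors (limma adjusted p = 3.65e-06).

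**Figure D2:**
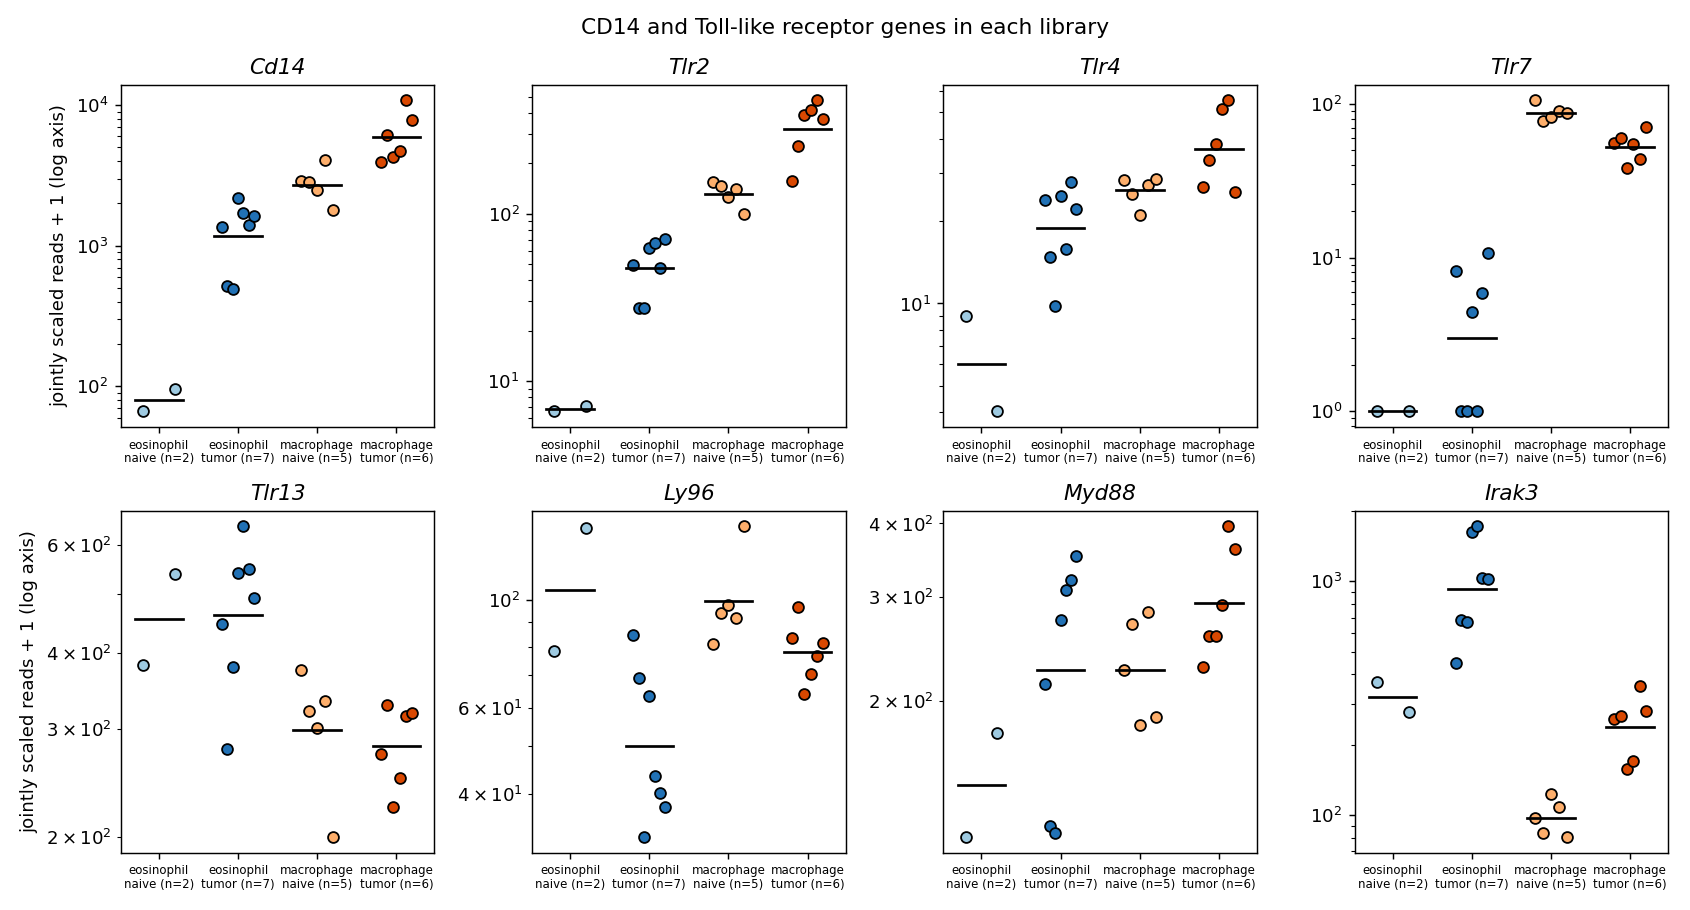
Jointly scaled reads plus 1 (log axis, a different range in each panel) of the 8 genes in every library of the 4 groups; points are libraries and bars the mean of the log values. For Cd14 the 7 tumor eosinophil libraries lie between both naive eosinophil libraries and nearly all macrophage libraries, while for Irak3 the eosinophil libraries lie above the macrophage libraries in naive colon and in tumors.

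Ly96, the MD-2 gene, was not called in either cell type. Naive eosinophils 1 and 2 had 56.3 and 111 normalised reads, and the 7 tumor libraries ran from 24.8 through a median of 34.4 to 59.8. The second naive library was the highest of the 9, while the first lay within the tumor range. The log2 change was −1.04 ± 0.43 (limma adjusted p = 0.202).

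In naive macrophages Ly96 had 78.5, 83.2, 92.6, 82.1 and 139.6 normalised reads, and in tumor macrophages 55.8 to 85.7 with a median of 68.5. The groups overlapped, with naive library 5 far above the rest. The change was −0.43 ± 0.18 (limma adjusted p = 0.123), and the difference between cell types was −0.72 ± 0.43 (limma adjusted p = 0.381). On the joint scale naive eosinophils (108 ± 43.8, SD, n = 2) and naive macrophages (100.3 ± 23.4, SD, n = 5) were within their spread of each other. Tumor eosinophils averaged 52.0 ± 19.5 (SD, n = 7) and tumor macrophages 77.9 ± 11.4 (SD, n = 6). That difference in tumors, −0.64 ± 0.24 (limma adjusted p = 0.0317), was lost with median-of-ratios scaling (−0.54, adjusted p = 0.0647) and in edgeR (−0.53, adjusted p = 0.0659). It was also lost without a filter on low values (−0.64, adjusted p = 0.0555) and on leaving out 1 of tumor eosinophils 3, 5, 6 or 7 or of tumor macrophages 1, 2 or 6 (limma adjusted p of 0.0534 to 0.07). Ly96 thus was not called in the cell types where Cd14, its partner at TLR4, rose.

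Of the surface receptors, Tlr2 had 4.06 and 4.83 normalised reads in naive eosinophils, which are 7 and 4 reads. In tumor eosinophils the 7 libraries ran from 19.8 through 40.9 to 55.7. No naive value came near the tumor range, whose low end was again libraries 2 and 3. The log2 change was 2.76 ± 0.49 (limma adjusted p = 0.00941), and it was 3.07 (limma adjusted p = 0.0049) without tumor libraries 2 and 3. It was not called by limma-voom (2.91, adjusted p = 0.295) or without naive library 2 (2.86, adjusted p = 0.0878), at a similar size.

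In naive macrophages Tlr2 had 149.8, 129, 120, 125 and 97.1 normalised reads, and in tumor macrophages 149 to 416 with a median of 330.5. The lowest tumor library, number 1, lay just under the highest naive one, and the other 5 tumor libraries lay above all naive libraries. Tlr2 rose 2.31-fold, by 1.21 ± 0.23 on the log2 scale (limma adjusted p = 0.0018). The eosinophil change exceeded the macrophage change by 1.49 ± 0.49, which was not called (limma adjusted p = 0.0897). It was called without tumor eosinophils 2 (1.63, limma adjusted p = 0.0494) and without libraries 2 and 3 (1.81, limma adjusted p = 0.0166). On the joint scale Tlr2 averaged 5.83 ± 0.335 (SD, n = 2) and 49.2 ± 17.8 (SD, n = 7) in naive and tumor eosinophils and 132 ± 21.6 (SD, n = 5) and 341 ± 116 (SD, n = 6) in naive and tumor macrophages. These levels have the same order of groups as those of Cd14. Eosinophils were lower by 4.27 on the log2 scale in naive colon (−4.27 ± 0.41, limma adjusted p = 2.95e-08) and by 2.77 in tumors (−2.77 ± 0.27, limma adjusted p = 2.61e-08).

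Tlr4, the receptor that CD14 and MD-2 serve, was scarce in eosinophils. Naive libraries 1 and 2 had 5.8 and 2.42 normalised reads, which are 10 and 2 reads, and tumor libraries 6.89 to 23.7 with a median of 16.4. The groups did not overlap, but by a margin of about 1 normalised read between naive library 1 and tumor library 3. The log2 change of 1.62 ± 0.60 was not called (limma adjusted p = 0.154).

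In macrophages Tlr4 had 26.8, 21.6, 19.3, 23.5 and 27.3 normalised reads in naive colon and 21.4 to 47.7 with a median of 31.0 in tumors. The ranges overlapped and the change, 0.42 ± 0.24, was not called (limma adjusted p = 0.253). The difference between cell types was 1.1 ± 0.55 (limma adjusted p = 0.27). Joint levels were 5.51 ± 3.50 (SD, n = 2) and 18.9 ± 6.52 (SD, n = 7) in naive and tumor eosinophils and 25.1 ± 3.08 (SD, n = 5) and 37.4 ± 12.5 (SD, n = 6) in naive and tumor macrophages. Eosinophils were below macrophages in naive colon (−2.11 ± 0.46, limma adjusted p = 0.00117) and in tumors (−0.97 ± 0.31, limma adjusted p = 0.0142). The naive call was lost without naive eosinophils 2 (−1.53, limma adjusted p = 0.0614), and the tumor call without tumor eosinophils 2 and 3 (−0.71, limma adjusted p = 0.0713).

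Tlr7, the first of the endosomal receptors, was nearly absent from eosinophil libraries. No read was counted in either naive library (0 of 11907402 reads), which allows up to 0.252 CPM over the group at 3 counts. Tumor eosinophil libraries 1, 4, 6 and 7 had 10, 3, 2 and 5 reads and the other 3 had 0. Together these 20 reads of 38346914 are 0.522 CPM (95% Poisson interval 0.319 to 0.806, counting error only). Tlr7 did not pass the filter on low values in eosinophils and was not tested there.

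In macrophages Tlr7 had 101.6, 67.7, 77.2, 79.5 and 85.0 normalised reads in naive colon, against 32.9 to 60.6 with a median of 49.5 in tumors. Every tumor library lay below every naive one, the opposite direction to Cd14, Tlr2 and Irak3. Tlr7 fell 1.75-fold, a log2 change of −0.81 ± 0.19 (limma adjusted p = 0.00751). Pooled over libraries, naive macrophages held 19.2 CPM, at least 76.1-fold higher than naive eosinophils, and tumor macrophages 12.9 CPM. The tumor effect in eosinophils minus that in macrophages was 2.32 ± 0.92 (limma adjusted p = 0.164), a fitted value that depends on the pseudocount, and it was called without tumor eosinophils 2 and 3 (2.95, limma adjusted p = 0.0281).

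Tlr13, the other endosomal receptor, was not called in either cell type. Naive eosinophils had 277 and 429 normalised reads and tumor eosinophils 209.7 to 482 with a median of 395. Naive macrophages had 366, 286, 288, 299.7 and 197 and tumor macrophages 197 to 292 with a median of 268. The naive values lay within the tumor range in eosinophils, and the ranges overlapped in macrophages. The log2 changes were 0.05 ± 0.34 (limma adjusted p = 0.955) and −0.17 ± 0.16 (limma adjusted p = 0.53). It was counted in every eosinophil library, with joint levels of 459 ± 111 (SD, n = 2) and 475 ± 121 (SD, n = 7) in naive and tumor eosinophils and 305 ± 65.2 (SD, n = 5) and 284 ± 42.6 (SD, n = 6) in naive and tumor macrophages. Eosinophils were above macrophages in tumors by 0.71 ± 0.19 (limma adjusted p = 0.00474), with overlapping libraries. In naive colon the difference was 0.60 ± 0.29 (limma adjusted p = 0.124).

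Myd88, the shared adaptor, was not called in any of the comparisons. Naive eosinophils had 84.7 and 140.1 normalised reads, and tumor eosinophils 92.0 to 282 with a median of 207. Tumor libraries 2 and 3, at 92.0 and 93.1, were the low end, and the groups overlapped. The change was 0.67 ± 0.47 (limma adjusted p = 0.467), and 1.03 without those libraries (limma adjusted p = 0.149).

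In macrophages Myd88 had 219, 240.3, 174, 255 and 185 normalised reads in naive colon and 217 to 347 with a median of 241 in tumors, again with overlap (0.29 ± 0.16, limma adjusted p = 0.235). Joint levels were 146 ± 41.9 (SD, n = 2) and 243 ± 94.7 (SD, n = 7) in naive and tumor eosinophils and 229 ± 46.2 (SD, n = 5) and 298 ± 66.2 (SD, n = 6) in naive and tumor macrophages. Eosinophils minus macrophages gave −0.65 ± 0.37 in naive colon (limma adjusted p = 0.205) and −0.38 ± 0.25 in tumors (limma adjusted p = 0.229). Myd88 overlaps Acaa1a on the opposite strand and Slc22a14 on its own (GENCODE M21), and whether counting used the strand is a detail not given in the sources used here: reads of overlapping genes cannot be told apart.

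Irak3, the inhibitor, was the member called higher in eosinophils than in macrophages both in naive colon and in tumors. Naive eosinophils had 269 and 219.8 normalised reads, and tumor eosinophils 318 to 1271 with a median of 817. All tumor libraries lay above both naive ones, and library 1, not 2 or 3, was the lowest. The log2 change of 1.56 ± 0.46 missed the threshold (limma adjusted p = 0.0778). It was called by DESeq2 (1.71, adjusted p = 0.00656) and by limma without tumor library 1 (1.76, adjusted p = 0.0342).

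In macrophages Irak3 had 94.5, 74.3, 117, 96.8 and 78.9 normalised reads in naive colon and 138 to 313 with a median of 239 in tumors. The groups did not overlap, and Irak3 rose 2.31-fold (1.21 ± 0.21, limma adjusted p = 0.00101). The changes in the cell types differed by 0.25 ± 0.48 (limma adjusted p = 0.832). Joint levels were 323 ± 66.3 (SD, n = 2) and 1026 ± 486 (SD, n = 7) in naive and tumor eosinophils and 97.7 ± 17.5 (SD, n = 5) and 247 ± 74.3 (SD, n = 6) in naive and tumor macrophages. Eosinophils thus exceeded macrophages, without overlap, by 1.72 ± 0.40 in naive colon (limma adjusted p = 0.00215) and 1.96 ± 0.27 in tumors (limma adjusted p = 3.36e-06). Irak3 overlaps Gm47009 and Tmbim4, both on the other strand, with the same limit as for Myd88.

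Between cell types, 5 of 8 members differed in naive colon, where 30.2% of 14973 genes were called (14.7% higher and 15.5% lower in eosinophils), with Irak3 higher in eosinophils and Cd14, Tlr2, Tlr4 and Tlr7 lower. In tumors 7 of 8 differed, against 43.1% of genes (18.9% higher and 24.2% lower), with Irak3 and Tlr13 higher in eosinophils and Cd14, Tlr2, Tlr4, Tlr7 and Ly96 lower. The libraries of the cell types did not overlap for 7 of 8 members in naive colon (41.5% of all genes) and for 4 of 8 in tumors (20.2%). Among the members, macrophage libraries therefore held more Cd14, Tlr2, Tlr4 and Tlr7 transcript in both settings, and eosinophil libraries more Irak3. The Tlr4 calls were lost on leaving out libraries, as given above.

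Macrophage transcripts in the eosinophil sorts were followed through C1q, whose 3 genes C1qa, C1qb and C1qc encode a complement component that marks tissue macrophages. They summed to 46.1 and 95.3 CPM in naive eosinophils, 159 to 516 in tumor eosinophils and 7726 to 11802 in macrophages. C1qb (2.1 ± 0.43, limma adjusted p = 0.0177) and C1qc (1.94 ± 0.42, limma adjusted p = 0.0218) rose in tumor eosinophils, as Cd14 and Tlr2 did, and C1qa was not called (1.53 ± 0.45, limma adjusted p = 0.0779). Of the 9 macrophage markers tested there 3 rose and 1 fell, and of the 12 neutrophil markers 5 rose, where 4.61% of all genes were called. Of the 10 eosinophil markers 3 fell, while the median log2 change of the 10 was 1.97, in the other direction. In tumor macrophages, where 17.1% of all genes were called, 6 of 10 neutrophil markers rose. Of the others, 5 of 7 dendritic cell, 4 of 12 macrophage and 3 of 7 stromal and endothelial markers fell. The median log2 change of the 12 macrophage markers was −0.13. The T and NK cell markers there summed to 475 ± 54.4 CPM in naive colon (SD, n = 5) and 136 ± 39.4 in tumors (SD, n = 6). The part of any of these other cell types, monocytes included, in the members' results was not tested.

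Within each tumor library the reads of each member were divided by its C1q reads. C1q averaged 335 CPM in tumor eosinophils and 9718 in tumor macrophages. This low denominator raises every eosinophil ratio, also for genes lower in eosinophils, as Cd14, Tlr2 and Tlr4 were. The p-values below therefore do not set the members apart from other genes, for which no such share was computed. Cd14 per C1q read was 4.60-fold higher in tumor eosinophils than in tumor macrophages, a log2 difference of 2.2 (exact two-sided permutation test, p = 0.00466, adjusted over the 8 members 0.00622). For Tlr2 the ratio was 3.40-fold higher (1.77, exact permutation p = 0.00583, adjusted 0.00666). The libraries of the cell types overlapped in both ratios through tumor eosinophils 2. That library had 0.182 Cd14 reads per C1q read, and tumor macrophages 0.0803 to 0.314. Tumor eosinophils 3, at 0.319, lay just above them. The part of macrophage RNA in the Cd14 and Tlr2 values of the eosinophil libraries was not tested. The log2 difference was 3.58 for Tlr4, 3.90 for Ly96, 4.16 for Myd88, 5.24 for Tlr13 and 6.5 (90.4-fold) for Irak3, each at the smallest p the exact permutation test allows (0.00117, adjusted 0.00186). Tlr7 was the exception at 1.28-fold (log2 0.35, exact permutation p = 0.632). Its ratio depended on the pseudocount of 1 read: with 5 reads the log2 difference was 1.74 (exact permutation, adjusted p = 0.00699), and without tumor eosinophils 2 and 3 it was 1.25 (adjusted p = 0.026). In the naive groups, with 2 and 5 libraries and no test made, the mean log2 ratio of Cd14 was −2.39 in eosinophils and −3.91 in macrophages, and that of Tlr2 −5.92 and −8.28.

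**Figure D3:**
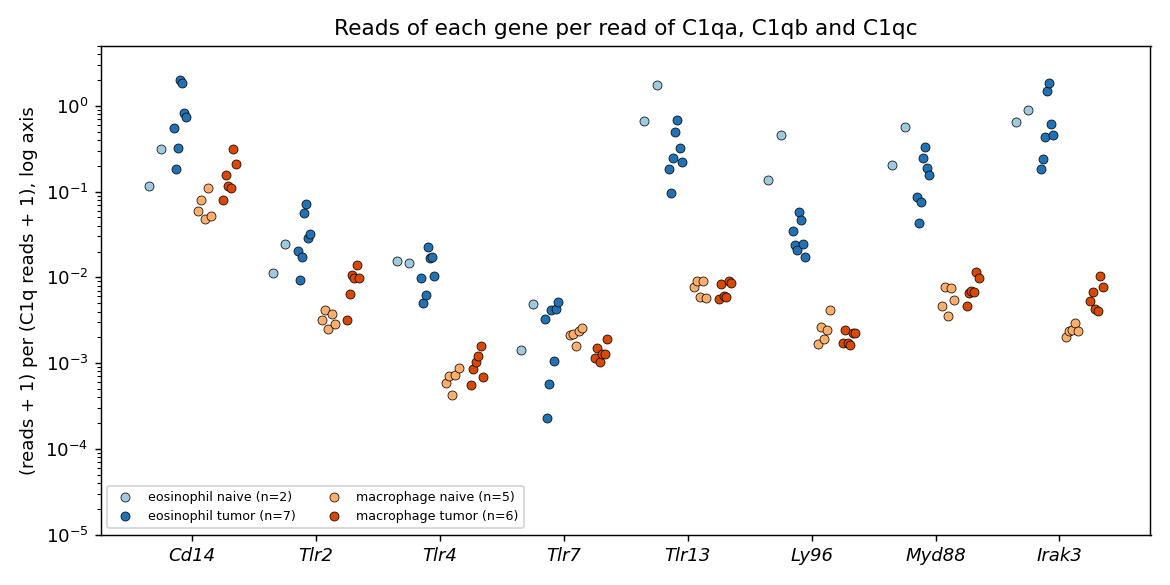
Reads of each gene plus 1 divided by C1q reads plus 1 (log axis) in every library of the 4 groups, so that no scaling between libraries enters. For Irak3, Tlr13, Myd88, Ly96 and Tlr4 all eosinophil libraries lie above all macrophage libraries, while for Tlr7 the 7 tumor eosinophil libraries straddle the macrophage ranges. C1q averaged 335 CPM in tumor eosinophils and 9718 in tumor macrophages, and this low denominator raises every eosinophil ratio, also for genes lower in eosinophils.

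The 5 genes outside the set whose joint log2 levels were most like those of Cd14 over the 20 libraries, of 14972 compared, were Slc15a3 (Pearson r = 0.967), Nlrp3 (0.966), Fam20c (0.960), Ralgds (0.959) and Tnfrsf1a (0.959). Tlr2 had 0.967, Tlr4 0.892, Tlr7 0.791, Myd88 0.743, Ly96 0.014, Irak3 −0.257 and Tlr13 −0.367. Within a cell type some of these turned: Irak3 had 0.825 over the 9 eosinophil and 0.885 over the 11 macrophage libraries, Tlr13 had 0.370 and 0.321, Ly96 −0.580 and −0.573, and Tlr7 0.645 and −0.603. Tlr2 had 0.992 and 0.844, Tlr4 0.865 and 0.582, and Myd88 0.734 and 0.890. These coefficients describe 20 libraries that fall into 4 groups with different levels and depth, and those within a cell type join a naive and a tumor group, so no test was made. Slc15a3 encodes an endosomal peptide transporter, Nlrp3 an inflammasome sensor and Tnfrsf1a a receptor for TNF.

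Around the members, 90 other genes of the pathway were followed in 7 lists. These too were chosen with earlier results of these data known, so the shares and medians below are descriptions. In eosinophils 79 were tested, of which 10 rose and 2 fell, where 4.61% of all genes tested were called. Scimp, Map3k8 and Nos2, which rose, passed the filter on low values only through tumor libraries. The eosinophil counts therefore depend on that filter. In macrophages 81 were tested, of which 20 rose and 11 fell, where 17.1% of all genes were called. For the difference between the cell types 85 were tested, of which 11 were called with a higher and 4 with a lower change in eosinophils, where 4.17% of all genes were called.

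Of the other Toll-like receptors, 3 of 8 were tested in eosinophils and limma called none, with 1 at an unadjusted p under 0.05, and edgeR, DESeq2 and limma-voom called none. Tlr1, a partner of TLR2, had 1.21 ± 0.45 (limma adjusted p = 0.155). In macrophages Tlr6, which also pairs with TLR2, rose (0.96 ± 0.24), and Tlr11 (−3.09 ± 0.62), Tlr12 (−0.67 ± 0.15) and Tlr3 (−0.85 ± 0.24) fell, 4 of 5 tested. The fifth, Tlr1, was not called.

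Of 12 genes for co-receptors and trafficking, 11 were tested in each cell type. Slc15a3 rose in eosinophils (4.0 ± 0.67) and in macrophages (1.18 ± 0.16). Cd36, a scavenger receptor that assists TLR2, fell in macrophages (−2.29 ± 0.31). Among the adaptors 1 of 6 was called in eosinophils: Scimp, which recruits a Src family kinase to Toll-like receptors, rose by 4.64 ± 0.56. It averaged 0.605 normalised reads in naive eosinophils, from 0 and 1 reads, and 39.0 in tumor eosinophils. In macrophages limma called none of 6, with 2 at an unadjusted p under 0.05 (Traf6 0.38 ± 0.14 and Traf3 0.54 ± 0.20), and edgeR, DESeq2 and limma-voom called none. With TMM scaling Traf6 was called (0.44, limma adjusted p = 0.0461), and Traf3 was called on leaving out naive macrophages 4 or tumor macrophages 1 or 3.

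Of 15 kinases and ubiquitin enzymes tested, Map3k8 (TPL2), which activates ERK below these receptors, rose in eosinophils (3.10 ± 0.70) and fell in macrophages (−0.74 ± 0.23). Ikbke rose (1.33 ± 0.16) and Peli1 fell (−0.93 ± 0.16) in macrophages. Of 5 transcription factors, Irf1 rose in eosinophils (2.44 ± 0.57) and in macrophages (0.65 ± 0.15).

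Of 15 other inhibitors, Nlrx1 (1.90 ± 0.35) rose and Il1rl1 (−2.24 ± 0.33) and Tnfaip3 (−1.32 ± 0.30) fell in eosinophils. Il1rl1 encodes the interleukin-33 receptor and Tnfaip3 the ubiquitin-editing enzyme A20. Without tumor libraries 2 and 3 Tnfaip3 was not called (−1.26, limma adjusted p = 0.0533). In macrophages Tnip1 (0.97 ± 0.21) and Socs1 (1.01 ± 0.33) rose, and Tnip3 (−0.98 ± 0.23) and Il1rl1 (−0.95 ± 0.30) fell.

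The list of target genes held 24 that were tested. In macrophages 14 rose, led by Nos2 (5.42 ± 0.47), Saa3 (3.50 ± 0.30), Acod1 (3.69 ± 0.45) and Clec4e (2.54 ± 0.32), and Il10 (−1.28 ± 0.21), Nfkbiz (−0.45 ± 0.13) and Nfkbia (−0.41 ± 0.13) fell. In eosinophils 5 rose: Saa3 (4.12 ± 0.33), Nos2 (4.54 ± 0.57), Tnf (3.43 ± 0.45), Cxcl1 (2.08 ± 0.41) and Ccl4. The median log2 change of the list was 1.53 in eosinophils and 1.07 in macrophages, beside 0.01 and 0.03 over all genes. Nos2, Il10 and Il12b passed the filter in eosinophils only through tumor libraries, so the eosinophil median depends on it.

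Several of these pathway calls rest on few libraries. In eosinophils the calls of Slc15a3, Irf1, Nlrx1, Il1rl1, Tnfaip3 and Cxcl1 were lost without naive library 2 (limma adjusted p of 0.0719 to 0.391), and that of Map3k8 without naive library 1 (1.73, limma adjusted p = 0.169). That of Irf1 was also lost without tumor library 4 or 7 (limma adjusted p = 0.052 and 0.0527). With limma-voom the calls of Slc15a3, Scimp, Map3k8, Irf1, Nlrx1, Tnfaip3, Nos2 and Cxcl1 were lost (adjusted p of 0.0556 to 0.304), and with edgeR that of Map3k8 (adjusted p = 0.0706). In macrophages the calls of Il1rl1, Map3k8, Nfkbia, Nfkbiz and Socs1 were lost without the filter on low values and on leaving out any of several libraries (limma adjusted p of 0.0505 to 0.202), those of Map3k8, Nfkbia and Nfkbiz also with TMM scaling, and that of Tlr3 without naive library 2 or 5 (limma adjusted p = 0.0584 and 0.0581).

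**Figure D4:**
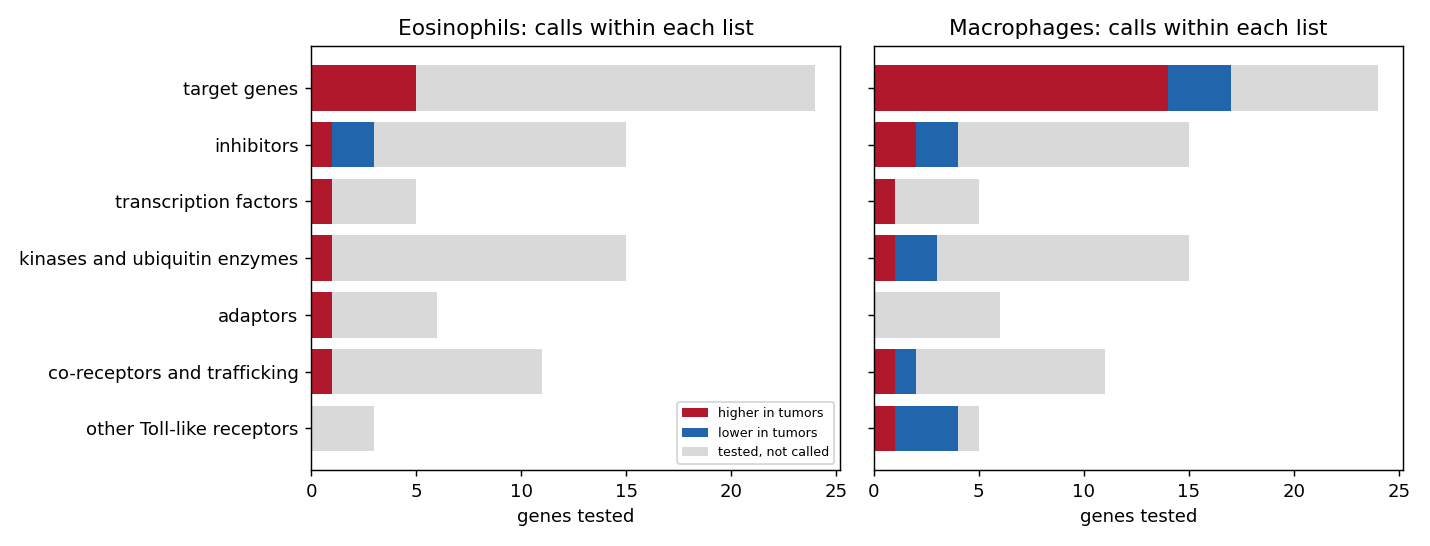
Number of genes tested in each of 7 pathway lists (horizontal axis) for eosinophils and macrophages, divided into those higher in tumors, lower in tumors and not called by limma at an adjusted p under 0.05. Target genes hold the most calls in both, 5 of 24 in eosinophils and 17 of 24 in macrophages.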

How the data were processed

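Each deposited table covers 1 cell type and holds a normalised signal: the authors' gene read counts, scaled per library. Tools listed in the submitters' processing notes are HTSeq 0.6.1, DESeq2 1.14.1, Bowtie2 2.2.6, TopHat2 2.1.0, FastQC 0.11.5 and Trim Galore, with build GRCm38.p5. How technical replicates and molecular barcodes were handled is a detail not given in the sources used here. All 374526 non-zero values were whole multiples of 1 read within 0.1 read (100.0%), which gave depth and whole counts. Entries with a number for a name (27, at most 0.1323% of reads) were left out.

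Values were tested as log2(value + 1) with limma 3.58.1 (R 4.3.3, eBayes with trend, two-sided), on genes at 10 or more in at least 2 eosinophil or 5 macrophage libraries, each cell type alone. This scale understates changes of low genes. Cell types were compared on recovered reads scaled together by TMM (edgeR 4.0.16), filtered at 10 in 2 libraries. Alternatives were edgeR's quasi-likelihood test, DESeq2 1.42.0, limma-voom, other scalings, filters and pseudocounts, and libraries left out. The edgeR test on the recovered reads called 531 genes in eosinophils (208 higher) and 1944 in macrophages, with 2 and 4 of the members. Scripts were tested on simulated data. All members are described, and each list's genes are named by smallest p, up to 4 called per direction. Ccl4 is named as the fifth of a count of 5. Members and lists were chosen with earlier results of these data known, and the motifs after the sequences were seen.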

Additional observations from a re-analysis of the deposited data

Results flagged for a closer look

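Ly96 in naive macrophages had 1 library far from the other 4: library 5 at 139.6 normalised reads, a gap of 0.768 of the group's range. Chance gives such a gap in about 1 of 20 groups, and 24 groups of members were checked.

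The tumor effect differed between eosinophils and macrophages (joint limma fit, adjusted p under 0.05) for Cd14 by 2.76 on the log2 scale and for 14 other pathway genes named by the rule. The eosinophil effect was the higher one for Scimp (4.63), Map3k8 (3.87), Il10 (3.01), Tnf (2.78), Slc15a3 (2.73), Ccl4 (2.65), Tnip3 (2.36), Tlr12 (2.23), Icam1 (1.80) and Nlrx1 (1.44). It was the lower one for Cxcl3 (−5.11), Acod1 (−2.97), Ptgs2 (−2.90) and Irak1 (−0.97). In the naive eosinophil libraries Scimp had 0 and 1 reads, Map3k8 1 and 8, Il10 0 and 6 and Tlr12 1 and 2. For these genes the size of the difference depends on the pseudocount. Without naive eosinophils 2 the calls of Il10, Slc15a3, Tnip3, Tlr12, Icam1, Nlrx1, Cxcl3, Acod1, Ptgs2 and Irak1 were lost (limma adjusted p of 0.073 to 0.422). Those of Acod1, Icam1 and Irak1 were also lost on leaving out any of several other libraries. Without tumor eosinophils 2 and 3 the difference of Acod1 was not called (−2.41, limma adjusted p = 0.0612).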

How the results depend on the processing

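With 2 naive eosinophil libraries, counts of calls in eosinophils were unstable. The 598 genes of the eosinophil comparison became 197 with limma-voom, 1384 with DESeq2 and 90 to 938 on leaving out 1 library (90 without naive 2, 938 without naive 1). The 624 genes of the difference became 403 without a filter and 163 to 1706 on leaving out 1 library (163 without naive eosinophils 2, 1706 without naive 1). Members called in eosinophils were 1 with limma-voom and 1 to 3 on leaving out a library (1 without naive 2, 3 without tumor 1). For the difference they were 1 to 2 on leaving out a library (2 without tumor eosinophils 2) and 3 without tumor eosinophils 2 and 3. Median-of-ratios scaling moved the all-gene median of the difference by 0.13 and its split of calls from 280 higher and 344 lower to 326 and 214. It moved that of tumor eosinophils against macrophages by 0.10. Signs turned, none called, on leaving out 1 library for Tlr13 in eosinophils (−0.26 to 0.36; −0.26 without naive 1, −0.019 without tumor 5 and −0.022 without tumor 6), for Tlr13 and Myd88 in the difference (−0.14 to 0.36 and −0.022 to 0.57) and for Ly96 between naive cell types (−0.34 to 0.50). The sign of Tlr7 per read of Csf1r, Mrc1 and Apoe also turned (−0.028).

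Replicate numbers are shared between groups, and same-numbered libraries deviated together by correlations of −0.31 to 0.14. Between tumor eosinophils and tumor macrophages the same number was the best match for 1, 3 and 6 but not for 2, 4 and 5. It was also the best match of naive eosinophils 1 and 2 among tumor eosinophils, and of no library in the other comparisons. These correlations cannot show whether same-numbered libraries share an animal or a batch, and the main fits used no pairing. With the number as a replicate block 1143 genes were called in eosinophils and 1230 in macrophages. In eosinophils only numbers 1 and 2 occur in both groups, so the blocked tumor effect rests on those libraries alone. Its count therefore cannot be set beside that of the main fit. With that block Cd14 in macrophages was not called (0.96, limma adjusted p = 0.0676), Ly96 between tumor cell types was not called (−0.57, adjusted p = 0.0715), Tlr3 and Tlr6 in macrophages were not called (adjusted p = 0.0631 and 0.0807), Tlr13 in eosinophils was −0.41 and Ly96 between naive cell types −0.086. Depth limits Tlr7 and naive Tlr2 and Tlr4 in eosinophils, which rest on 0 to 10 reads per library. It also limits Scimp, Map3k8, Il10, Tlr12 and Nos2, which had 0 to 8 reads per library in naive eosinophils.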
